A study of Mus musculus with 24 samples.

Results

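Rad21 peaks called after depletion of Rad21, a subunit of the cohesin ring itself, were compared with those called after depletion of CTCF. CTCF is the DNA-binding protein at which cohesin accumulates. A peak or site said below to be left is one called after depletion. Whether it is cohesin kept from before the depletion was not tested. The members were the mouse peaks of 5 of the 24 samples, namely the Rad21 chromatin immunoprecipitation (ChIP-seq) libraries of cells treated with the auxin IAA. These were 2 libraries of the Rad21-degron line, called Rad21-depleted below, and 3 of the CTCF-degron line, called CTCF-depleted. A site was a merged peak region overlapped by a peak of every library of its group, which gave 830 sites in Rad21-depleted cells and 12559 in CTCF-depleted cells. Merged with each other these were 12794 regions, of 90338 merged mouse peak regions over the 16 peak lists of the series. A site was called shared when it overlapped a site of the other group, "only" when no peak of any library of the other group overlapped it, and partial otherwise.

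All cells were v-Abl transformed pro-B lines, that is, B cell precursors immortalised by a viral Abl kinase. They were RAG2 deficient and carried an Emu-Bcl2 transgene, and all received the Abl inhibitor STI-571 at 3 µM for 4 days. IAA was given at 500 µM, from 6 h before the STI-571, to lines whose Rad21 or CTCF is fused to a tag that directs it to degradation. Controls were 2 Rad21 libraries of the Rad21-degron line without IAA, and 3 Rad21 and 3 CTCF libraries of the parental line. A further 3 CTCF libraries came from the CTCF-degron line with IAA. Both Rad21-depleted libraries and replicates 2 and 3 of the CTCF-depleted group held a spike-in of HCT116, a human colorectal carcinoma line, whose peaks were set aside. The line and the depleted protein change together, so the effects of the line and of the depletion cannot be told apart. Nothing in the labels says that replicates came from separate cultures, so p-values measure only the spread between libraries, which may be technical.

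Cohesin is a ring-shaped complex of Smc1, Smc3, Rad21 and a Stag subunit that is loaded on chromatin, extrudes DNA loops and stops where it meets CTCF bound in a given orientation. Much of the loading is at active promoters and enhancers, with help from Nipbl. In precursor B cells, loop extrusion by cohesin brings distant V gene segments to the recombination centre of the immunoglobulin heavy chain locus. Without CTCF, cohesin can still be loaded and move but lacks its main stopping places, whereas without Rad21 the ring cannot form.

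The sequences below, from the mouse reference of the lists' build (NCBIM37, mm9), show the kinds of DNA under the sites. The first set is from 4 of the 5 shared sites away from promoters that ranked first by fold enrichment. Capitals mark the longest run that the members of a pair have in common, 74 bases for the first pair and 60 bases for the second. As background, the letters of the first pair are those of the mouse minor satellite, the repeat of the centromere, and those of the second pair are the major satellite that flanks it. No satellite consensus was used for this, and the central 31 bp of each of the 4 sites occur once in the reference.
Site nearest U7 (chr6:103599200-103599299, plus strand): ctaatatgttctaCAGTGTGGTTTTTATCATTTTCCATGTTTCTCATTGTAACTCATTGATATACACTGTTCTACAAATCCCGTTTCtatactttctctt
Site beside Gm10800 (chr2:98505212-98505311, minus strand): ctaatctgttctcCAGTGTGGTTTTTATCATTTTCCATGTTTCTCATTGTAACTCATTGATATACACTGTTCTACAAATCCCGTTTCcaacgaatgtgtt
Site nearest Gm5614 (chr9:35113027-35113126, plus strand): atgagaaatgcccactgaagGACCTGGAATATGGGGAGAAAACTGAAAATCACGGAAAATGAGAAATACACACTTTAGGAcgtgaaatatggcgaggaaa
Site in Gm10801 (chr2:98503827-98503926, minus strand): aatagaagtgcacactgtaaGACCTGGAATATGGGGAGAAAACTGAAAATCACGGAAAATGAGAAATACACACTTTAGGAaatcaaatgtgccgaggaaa

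The next set is from sites found only in CTCF-depleted cells, with a match to the core CTCF motif in capitals.
Arhgap22 promoter (chr14:34027057-34027156, plus strand): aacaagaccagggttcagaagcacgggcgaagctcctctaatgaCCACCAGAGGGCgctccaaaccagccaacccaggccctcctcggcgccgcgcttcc
Site nearest AC118255.1 (chr8:129021522-129021621, plus strand): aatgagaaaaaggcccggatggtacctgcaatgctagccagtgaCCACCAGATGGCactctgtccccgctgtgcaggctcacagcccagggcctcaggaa
Site nearest Scgb1a1 (chr19:9157082-9157181, minus strand): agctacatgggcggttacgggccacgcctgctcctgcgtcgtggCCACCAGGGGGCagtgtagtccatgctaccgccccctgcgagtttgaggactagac

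The last set is from shared promoters. Capitals mark TGACGTCA, the motif of CREB and ATF factors, in Clcn4-2, and CGGAAG, a short core of ETS factor motifs, in Rps26 and Rps19. The CGGAAG core was chosen after these sequences were seen.
Clcn4-2 promoter (chr7:7252291-7252390, plus strand): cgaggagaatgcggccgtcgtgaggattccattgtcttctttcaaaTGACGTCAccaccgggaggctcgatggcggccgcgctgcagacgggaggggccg
Rps26 promoter (chr10:128063810-128063909, plus strand): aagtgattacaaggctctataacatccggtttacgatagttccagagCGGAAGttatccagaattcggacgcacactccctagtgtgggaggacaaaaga
Rps19 promoter (chr7:25669290-25669389, minus strand): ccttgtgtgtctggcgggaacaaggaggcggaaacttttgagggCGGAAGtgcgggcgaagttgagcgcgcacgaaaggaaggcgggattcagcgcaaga

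Far fewer Rad21 peaks were left after removal of Rad21 than after removal of CTCF. The Rad21-depleted libraries held 3588 and 1384 mouse peaks, and the CTCF-depleted ones 35224, 25949 and 15690, so the groups did not overlap. The difference was 10.9-fold on the mean of log2 numbers (exact permutation test over libraries, p = 0.10, adjusted p = 0.160 over 8 measures), where 0.1 is the smallest p that 2 against 3 libraries can give. The log2 difference of -3.45 was -2.76 without Rad21-depleted replicate 2 and -4.13 without replicate 1. It was -1.65 with mouse and human peaks counted together and -5.87 with equal numbers of human peaks. Covered length was 1.11 and 0.624 Mb against 19.3, 11.8 and 4.92 Mb, a 12.5-fold difference with the same p that was -0.70 on the log2 scale, against -3.64, when each list was cut to its 1384 highest peaks. The untreated Rad21-degron libraries held 32913 and 22085 peaks and the parental ones between 29724 and 67810.

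Between the 2 IAA-treated groups, human spike-in peaks differed in the other direction. The Rad21-depleted lists held 5603 and 5481 human peaks, and the CTCF-depleted lists with a spike-in 1675 and 319. The untreated Rad21-degron lists held 11861 and 14878, and parental replicates 2 and 3 held 9640 and 1748. Against the untreated Rad21-degron line, the Rad21-depleted lists thus had fewer human peaks as well as fewer mouse peaks. Mouse peaks per human peak were 0.640 and 0.253 after Rad21 depletion and 15.5 and 49.2 after CTCF depletion, beside 2.77 and 1.48 in the untreated Rad21-degron line and 4.56 and 17.0 in parental replicates 2 and 3. The parental value of 17.0 lies within the CTCF-depleted range. The lists give peaks and not reads. Depth is therefore unknown, and its part in any difference of peak number was not tested.

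Most sites left without Rad21 were also called without CTCF, while few of the sites left without CTCF were called without Rad21. Of the 830 Rad21-depleted sites, 588 (70.8%) were shared, 226 were partial and 16 were found only in Rad21-depleted cells. Of the 12559 CTCF-depleted sites, 503 (4.01%) were shared, 1834 were partial and 10222 had no peak in either Rad21-depleted library. Over the 37811 merged regions of the 5 lists, 1.42% had a peak in all 5 libraries, 27.0% in all 3 CTCF-depleted libraries and no Rad21-depleted one, and 0.0423% in both Rad21-depleted libraries and no CTCF-depleted one. When each list was cut to its 1384 highest peaks, 9.85% of Rad21-depleted and 5.46% of CTCF-depleted sites were shared, 433 were found only in Rad21-depleted and 789 only in CTCF-depleted cells. The classes therefore move with the length of the lists.

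The class sizes also rest on single libraries. The shared count was 903 without Rad21-depleted replicate 1 and 2418 without replicate 2. The count found only in CTCF-depleted cells was 18877 without CTCF-depleted replicate 3. The count found only in Rad21-depleted cells was 93 and 234 without Rad21-depleted replicate 1 or 2, and 82 without CTCF-depleted replicate 1. Of the 1834 partial CTCF-depleted sites, 1801 had an annotation, and 78.2% of those were at promoters. Of the 1834, 1661 had their peak in Rad21-depleted replicate 1 alone and 134 in replicate 2 alone.

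**Figure D1:**
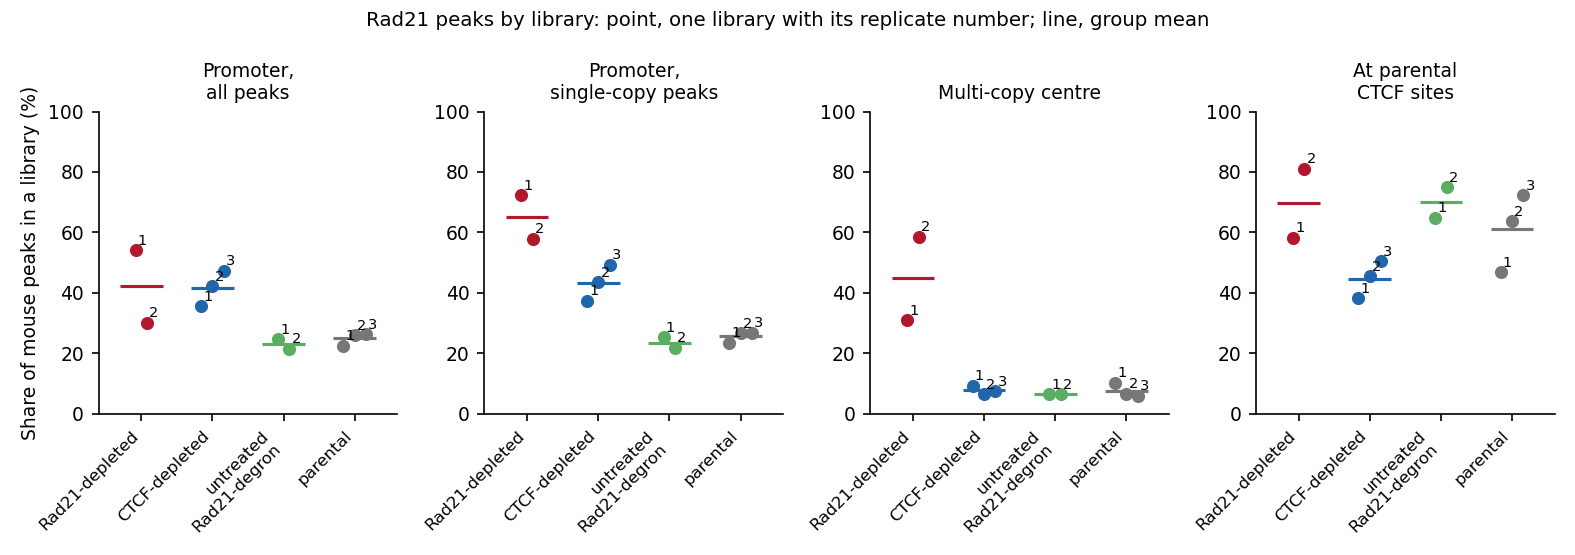
Share of the mouse peaks of each Rad21 library (percent, vertical axis) that lie at promoters, at promoters among single-copy peaks, on a multi-copy centre, or at parental CTCF sites; each point is a library with its replicate number and the line is the group mean. Both Rad21-depleted libraries, at 31% and 58.6%, lie above all others in the multi-copy panel, and at 72.3% and 57.9% above all others in the panel of single-copy promoter peaks.

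The largest class of Rad21-depleted sites lay in repeated sequence. A site was called multi-copy when its central 31 bp occur more than once in the reference, and single-copy otherwise. Multi-copy centres made up 31% and 58.6% of the peaks in the Rad21-depleted libraries and 9.33%, 6.54% and 7.51% in the CTCF-depleted ones. The groups did not overlap, and the difference of the means was 37.0 percentage points (exact permutation test, p = 0.10, adjusted p = 0.160). Without Rad21-depleted replicate 2 it was 23.2 points. Control libraries had 6.54% and 6.56% without IAA and 6.02% to 10.3% in the parental line. Among sites, 512 of 830 Rad21-depleted sites (62.9% of those that could be read) and 738 CTCF-depleted sites (5.97%) were multi-copy.

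Repeated sites came in clusters. When Rad21-depleted sites within 100 kb were joined, they fell into 310 loci, of which 249 held 1 site and 12 held 10 or more. Those 12 loci held 415 sites, 50.0% of all, and 357 of the 415 (86.0%) were multi-copy, against 31.3% of the sites in loci of 1 site. The X chromosome carried 225 of the 830 Rad21-depleted sites (27.1%) and 293 of the CTCF-depleted sites (2.33%). Chromosome 8 carried 14.7% and 5.45%.

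The cluster with the most sites lay on the X chromosome at chrX:120272024-121315768 with 137 sites, 122 of them multi-copy, in a region that holds Vmn2r121, a vomeronasal receptor gene, among predicted genes. A cluster of 95 sites lay at chr8:19685801-20037184. The one at chr5:14900006-15221631 had 47 sites and spans Speer4c, Speer4d and Speer4e, members of a testis gene family in tandem copies. On chromosome 1, 26 sites lay at chr1:85078895-85278955 and 16 at chr1:87391561-87522063 across Sp110 and Sp140, nuclear body genes of the immune response. A further 17 lay at chrX:166424831-166579116 across Mid1, a ubiquitin ligase gene at the edge of the pseudoautosomal region.

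The 2 clusters with the most sites, like most Rad21-depleted sites, were also called with the CTCF antibody. All 137 sites of the cluster on X and all 95 on chromosome 8 overlapped a site found in every parental CTCF library and one found in every CTCF library of CTCF-depleted cells. Over all 830 Rad21-depleted sites these shares were 89.0% and 90.5%, and over the 512 multi-copy ones 97.7% and 98.0%. Both untreated Rad21-degron libraries also had a site at 75 of the 137 and at 69 of the 95, but at 3 of the 47 on chromosome 5. Over all Rad21-depleted sites this share was 51.3%. Over the 332 shared multi-copy sites, 99.4% to 99.7% had a peak in each CTCF library of CTCF-depleted cells. A match to the core CTCF motif was in the central 200 bp of none of the 497 multi-copy Rad21-depleted sites read. It was also in none of 480 windows 5 kb away and in 0.265% of all gene starts, so none is near the background. A missing match says only that these letters are not in the window.

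**Figure D2:**
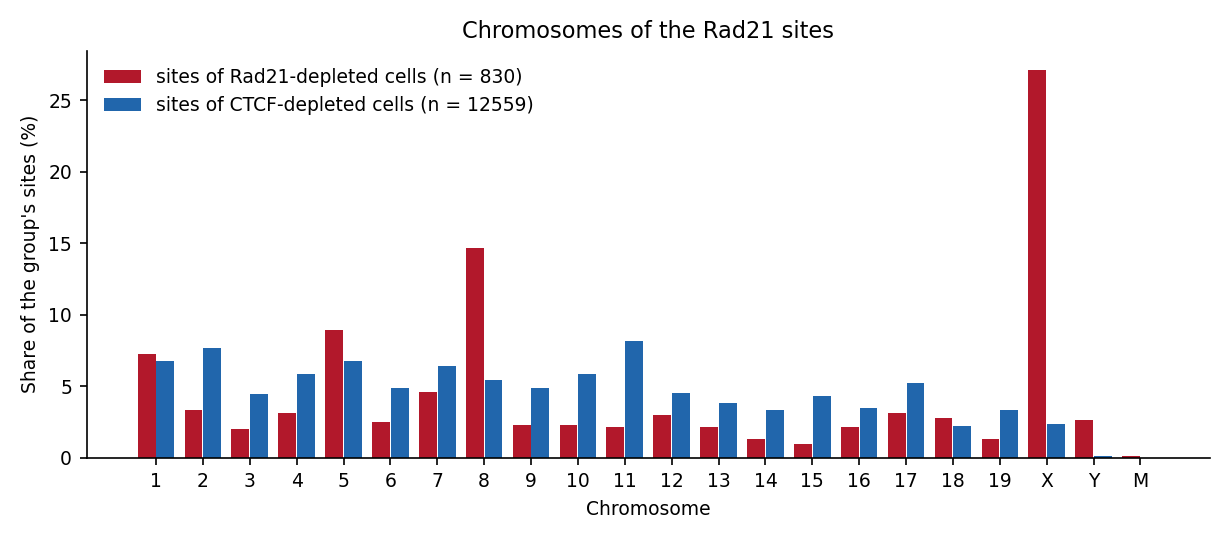
Share of the sites of each group (percent, vertical axis) by chromosome, in red for the 830 sites of Rad21-depleted cells and in blue for the 12559 of CTCF-depleted cells. The X chromosome holds 27.1% of the red and 2.33% of the blue sites, and chromosome 8 holds 14.7% and 5.45%.

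The satellite-like sites printed above ranked first among shared sites away from promoters. Fold enrichment here is the authors' own value for a peak and is used only to describe and rank peaks within a list. Values from different lists are given side by side, and no direction between groups is read from them. At the site nearest U7 (chr6:103599035-103599294, in an intron, 60337 bp from the U7 start) it was 4125 and 3303 in the Rad21-depleted libraries. In the CTCF-depleted libraries it was 4664, 3627 and 2212, and without IAA 2279.7 and 1886. Its width was 258 to 281 bp in all 5 libraries. The site nearest Gm5614 (chr9:35112794-35113189, intergenic) had 2879 and 2054 against 2623, 2063 and 2484. The other sites that ranked first were beside Gm10800, in Gm10801 and nearest Ly6c2.

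The shared multi-copy site that ranked first was over the start of Gm10800 (chr2:98506390-98507504), with 29119.7 and 21655 in Rad21-depleted and 27219, 20790.4 and 16930 in CTCF-depleted libraries. Its longest runs in common were 77 bases with the U7 site and 115 bases with the Gm5614 site. Without IAA it had 14419 and 11362. The peaks of the CTCF antibody at shared multi-copy sites reached 31622 to 39184 in CTCF-depleted cells. A run of 20 bases in common with the U7 or the Gm5614 site was present in 17 of 791 Rad21-depleted sites (2.15%), in 10 of 12354 CTCF-depleted sites (0.0809%) and in 1 of the 10077 sites found only in CTCF-depleted cells. These counts were made after the sequences were seen.

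Of the single-copy sites left without Rad21 that had an annotation, 149 of 293 (50.9%) were at promoters. Among the partial ones the share was 33.9% of 56. A promoter site lay within 1000 bp of an annotated transcript start (GENCODE vM1). Of the single-copy shared sites with an annotation, 130 of 234 (55.6%) were at promoters, 4.27% in exons, 7.69% in introns and 32.5% between genes. Promoters by this rule cover 4.01% of the bases of the genome. Single-copy sites found only in CTCF-depleted cells were at promoters in 44.7% of cases, and multi-copy shared sites in 13.5%. Of the 130 promoters, 97 sites overlapped a transcript start itself.

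The comparison of promoter shares turned with the treatment of repeats and with 1 library. Over all copy numbers, 34.5% of shared and 44.5% of "only" CTCF-depleted sites were at promoters, a difference of -10.0 points. With single-copy sites alone, 61.2% of shared CTCF-depleted sites were at promoters, and the difference was 16.5 points. Over all copy numbers but without Rad21-depleted replicate 2, the difference was 23.9 points in place of -10.0. These are descriptions without a test.

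Per library, the promoter share depended on which Rad21-depleted replicate was used. Promoter peaks were 54.1% and 30.2% of all peaks after Rad21 depletion and 35.6%, 42.3% and 47.4% after CTCF depletion. The groups overlapped, with a difference of 0.429 points (exact permutation test, p = 1.00, adjusted p = 1.00) that was 12.4 without Rad21-depleted replicate 2 and -11.5 without replicate 1. It was 19 points when each list was cut to its 1384 highest peaks (exact permutation test, p = 0.10) and -24.7 with equal numbers of human peaks. Among single-copy peaks alone, a setting chosen after seeing the data, the shares were 72.3% and 57.9% against 37.4%, 43.6% and 49.3%. These did not overlap, and the difference was 21.6 points (exact permutation test, p = 0.10). The untreated Rad21-degron libraries had 25.3% and 21.9% and the parental ones 23.6% to 26.8%.

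**Figure D3:**
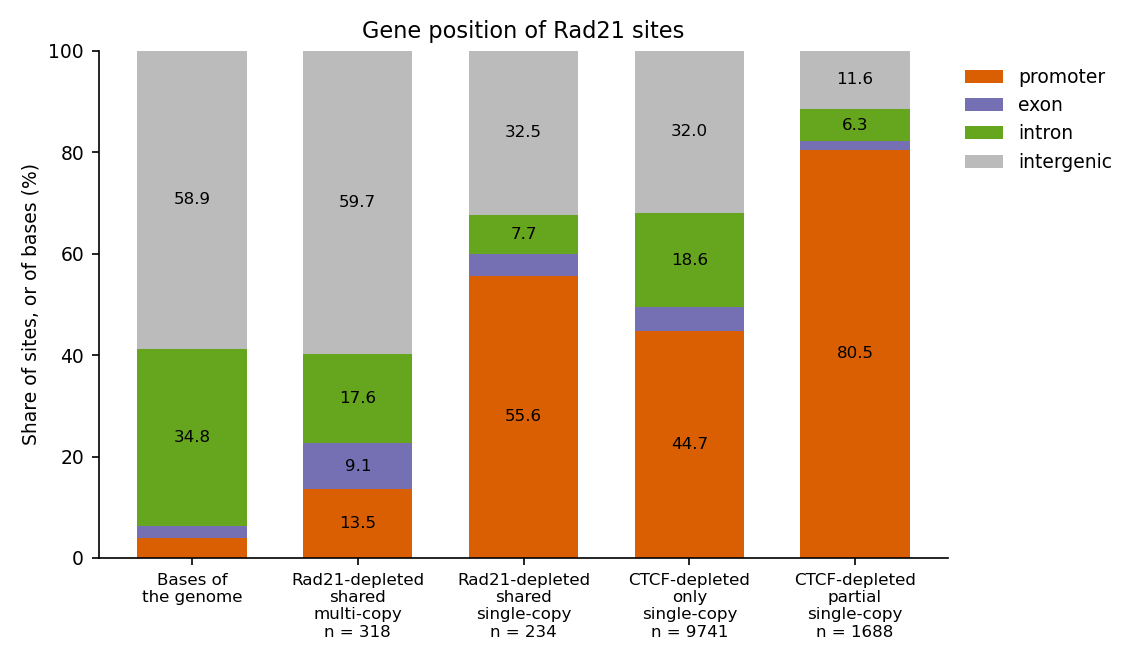
Share of sites (percent, vertical axis) in promoters, exons, introns and between genes for classes of Rad21 sites, beside the share of genome bases; n is the number of sites with an annotation. Promoters hold 13.5% of multi-copy and 55.6% of single-copy shared sites, 44.7% of single-copy sites found only in CTCF-depleted cells, 80.5% of single-copy partial CTCF-depleted sites, and 4.01% of bases.

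Few genes had a promoter site in both depletions. Over 22113 protein-coding genes, 164 (0.742%) had a shared site at a transcript start, and 6278 (28.4%) had a CTCF-depleted site there. Ranked by fold enrichment over the 5 libraries, the first single-copy promoter sites were those of AY036118, Gm15247, Gm14950, Clcn4-2 and Malat1. The single-copy call rests on the central 31 bp alone. The sites of Gm15247 and Gm14950 lie in the clusters at chrX:166424831-166579116 and chrX:120272024-121315768. In these, 13 of 17 and 122 of 137 sites were multi-copy. Malat1, an abundant long nuclear RNA, had a site at chr19:5803086-5803974, 415 bp from the start, with fold enrichment 16.1 and 11.1 in Rad21-depleted and 9.65, 7.99 and 6.02 in CTCF-depleted libraries. Its percentile within the list was 99.3 and 97.6 in Rad21-depleted and 96.2, 92.1 and 93.5 in CTCF-depleted libraries.

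At the start of Clcn4-2, a chloride transporter gene (chr7:7252217-7252495), fold enrichment was 8.64 and 6.45 against 14.5, 13.0 and 7.26. AY036118, an annotated pseudogene on chromosome 17, had 64.9 and 42.9 against 39.0, 30.6 and 17.9. It also had 12.8 and 12 without IAA. Its peaks spanned 5838 to 5847 bp in all 5 libraries.

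The list of ribosomal protein genes was drawn by symbol and had 95 members, of which 11 encode S6 kinases or a binding protein and were dropped after the counts were seen. Of the 84 left, 68 (81.0%) had a CTCF-depleted site at a start and 4 (4.76%) a shared site: Rps12, Rps19, Rps26 and Rps3a. The shares over all genes were 28.4% and 0.742%. By library, 38 and 4 of the 84 had a Rad21-depleted peak at a start, beside 80, 78 and 68 in CTCF-depleted libraries, so the count of 4 is set by Rad21-depleted replicate 2. Over all protein-coding genes these were 2024 and 377 against 10001, 9099 and 6346. At Rps26 (chr10:128063705-128063989) fold enrichment was 4.63 and 4.91 in Rad21-depleted libraries, 6.16, 5.21 and 4.84 in CTCF-depleted ones and 4.97 and 4.42 without IAA. Rps3a (chr3:85946498-85946717) had 5.45 and 5.11, then 7.38, 8.17 and 6.46, and 3.97 and 3.93 without IAA. Rps12 (chr10:23507029-23507169) had 5.23 and 4.38 against 4.17, 4.38 and 4.49. Its percentile within the list was 63.7 and 7.04 in Rad21-depleted libraries, so the replicate 2 peak was among the weakest of its list. Over the 130 single-copy shared promoters the median percentile was 68.0 and 39.5 in these libraries.

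Other lists gave 1 or no gene with a shared site. Over all protein-coding genes, 0.742% had a shared and 28.4% a CTCF-depleted site at a start. Genes of translation initiation factors and their regulators, without 4 Argonaute genes that share the symbol, had shared sites at 1 of 52, Eif4e, the cap-binding factor, and CTCF-depleted sites at 34. Genes in the unannotated window of chromosome 12 are in none of the lists. Splicing genes had 1 of 49, Hnrnpc, a binder of nascent RNA, and 40. Replication-dependent histone genes had 1 of 66, Hist1h4d, and 40. At Hnrnpc (chr14:52723977-52724124), fold enrichment was 5.93 and 5.10 against 4.71, 4.80 and 4.82, with no peak in either untreated library. At Eif4e it was 5.58 and 5.09 in Rad21-depleted libraries, in peaks 51 and 55 bp wide, and 4.80, 5.11 and 4.67 in CTCF-depleted ones. At Hist1h4d it was 4.58 and 4.42, and 5.60, 5.07 and 4.96.

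Of 15 pro-B genes, 13 (86.7%) had a CTCF-depleted site at a start and none a shared one, beside 28.4% and 0.742% of all genes. With so low a share over all genes, a list of 10 to 18 genes without a shared site cannot be told from the background. Pax5, the B cell commitment factor, had no Rad21-depleted peak within 1000 bp of a start, 6.58, 6.05 and 4.26 in CTCF-depleted libraries and 5.35 and 3.80 without IAA. Its CTCF-depleted site was partial and not "only", so a Rad21-depleted peak overlapped that site farther from the start. The Tcf3 site was partial too. Ebf1, which acts with Pax5, had 4.43 in Rad21-depleted replicate 1 and none in replicate 2, against 5.01, 4.38 and 4.43. Vpreb1, the surrogate light chain, had 8.26, 7.26 and 5.07 in CTCF-depleted libraries alone of the IAA-treated groups. Dntt and Igll1 lacked a CTCF-depleted site. In the parental libraries 15, 15 and 14 of the 15 pro-B genes had a peak at a start. Of 10 markers of other blood cells, 1 had a CTCF-depleted site, Klrb1c, a natural killer cell receptor.

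Of 15 cohesin and CTCF genes, 9 had a CTCF-depleted site at a start. Rad21 itself had a peak of fold enrichment 5.53 in Rad21-depleted replicate 1, none in replicate 2, and 4.39, 4.76 and 3.99 in CTCF-depleted libraries. Of 18 cell cycle and survival genes, 16 (88.9%) had a CTCF-depleted site, beside 28.4% of all genes. All 18 had a peak at a start in each parental library. Myc had 5.68, 5.20 and 4.39 and no Rad21-depleted peak, beside 4.93 and 4.49 without IAA.

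A few genes outside the lists are named here after their values were seen. The start that Hspd1 and Hspe1, the mitochondrial chaperonin genes, have between them had fold enrichment 5.36 and 4.79 after Rad21 depletion and 6.36, 5.69 and 5.07 after CTCF depletion. Odc1, the first enzyme of polyamine synthesis, had 8.87 and 6.08, and 5.67, 4.52 and 3.99, beside 9.41, 4.90 and 4.08 in the parental line. Smc4, a condensin subunit, had 5.46 and 4.69, and 4.63, 4.94 and 4.07.

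The 130 single-copy shared promoters were rich in G and C, with a median of 63.5% over 200 bp and a CpG ratio (observed over expected) of 0.885. Promoters found only in CTCF-depleted cells had 66% and 0.840. The ETS motif CCGGAAGT, on either strand, was in 10.8% of the shared promoters, 4.53% of the CTCF-depleted-only ones and 3.08% of all gene starts. TGACGTCA was in 6.15%, 1.52% and 1.42%, and GCGCATGCG, the NRF1 motif, in 4.62%, 1.68% and 1.23%. Other motifs searched differed less: AAGATGGCG, the YY1 motif, was in 3.08%, 2.32% and 1.62%. GGTTCGA, the B box of Pol III genes, was in 0.769%, 1.01% and 0.593%, and CACACACAC in 2.31%, 0.850% and 1.67%. The shorter CGGAAG, which CCGGAAGT contains, was in 46.2%, 22.8% and 16.9%. A core CTCF motif was in none of the 130 shared promoters, 2.11% of the CTCF-depleted-only ones and 0.265% of all gene starts, so none among 130 is near the share of all starts. The 200 bp windows lay at the centre of sites of unlike width, with a median of 248 bp for the shared promoters. Over all single-copy CTCF-depleted promoter sites the median was 993 bp. The part of site width in these shares was not tested. A match is a description and shows no binding.

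Peaks at these promoters were narrow without Rad21. The median width over the 130 single-copy shared promoters was 214 and 149 bp in Rad21-depleted libraries and 1169.5, 811 and 405 bp in CTCF-depleted ones, so the groups did not overlap. The difference was 4.08-fold on the mean of log2 medians (exact permutation test, p = 0.200, adjusted p = 0.333 over 5 sets). Untreated Rad21-degron libraries had peaks at 80.0% and 57.7% of the sites, 374 and 310 bp wide, and parental ones were 529 to 1540 bp wide. At Rps3a the width was 208 and 213 bp against 1071, 1102 and 386 bp, and at Hnrnpc 148 and 130 bp against 1708, 798 and 516 bp.

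Multi-copy shared sites did not differ in this way beyond the spread of libraries. Their median widths were 447 and 363 bp against 942, 434 and 327 bp, with overlapping groups (exact permutation test, p = 0.900, adjusted p = 0.900). Single-copy shared sites away from promoters had 436 and 320.5 bp against 1072, 500 and 428 bp (exact permutation test, p = 0.500, adjusted p = 0.625). Whether the width difference itself differs between promoters and repeats was not tested. In CTCF-depleted libraries, the widest peak at shared sites had median widths of 979, 558 and 367 bp. At sites without a Rad21-depleted peak these were 748, 525 and 259 bp, smaller in 3 of 3 libraries. When all peaks that touch a site were used in place of the widest, the log2 differences were 0.346, -0.112 and 0.447, with a mean of 0.23 ± 0.298 (SD, n = 3). That mean changed sign when at least 50 percent of a site had to be covered. A wide site is more readily overlapped by a peak of the other group, so these classes are not independent of width. The part of this in the difference was not tested. Over all peaks, median width was 162 and 169 bp against 389, 335 and 237 bp (1.90-fold, exact permutation test, p = 0.200, adjusted p = 0.267). The log2 difference of -0.92 was -1.78 when each list was cut to its 1384 highest peaks (exact permutation test, p = 0.10) and 0.18 with equal numbers of human peaks.

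**Figure D4:**
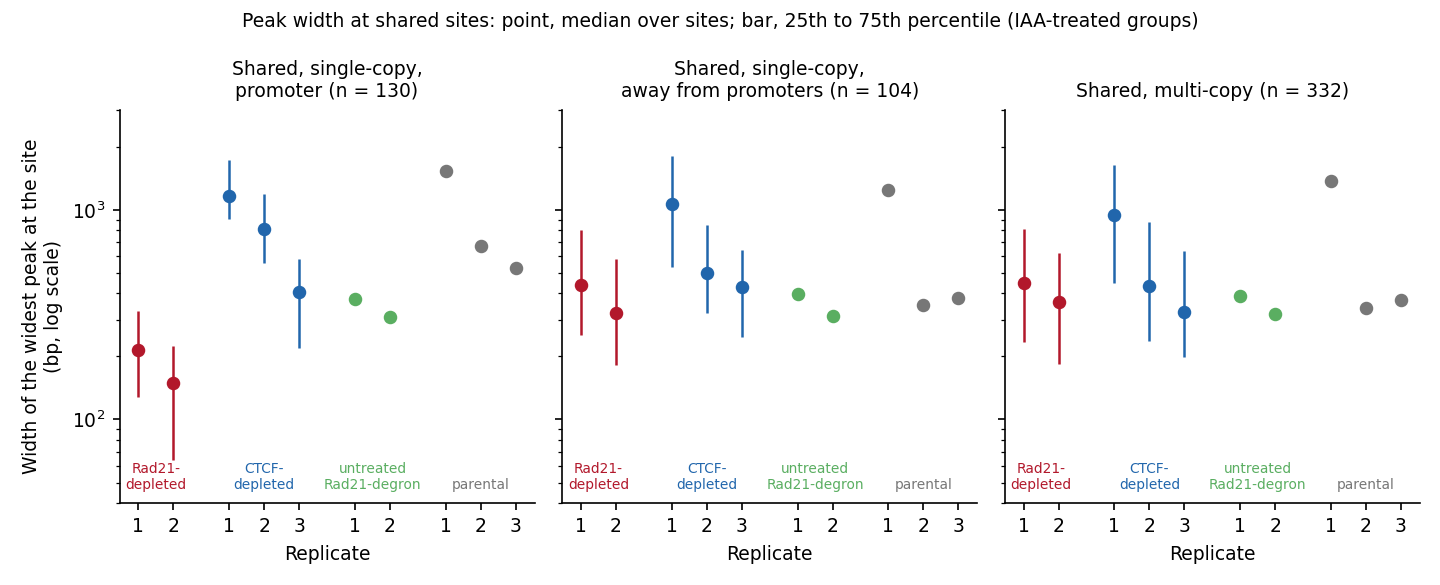
Width of the widest peak at a shared site (bp, log axis) in each Rad21 library by replicate, for single-copy promoters, single-copy sites away from promoters and multi-copy sites; points are medians over sites with a peak and bars the 25th to 75th percentile in the IAA-treated groups. At promoters the Rad21-depleted medians of 214 and 149 bp lie under all CTCF-depleted medians, whereas at multi-copy sites the groups overlap.

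The sites found only in CTCF-depleted cells were in part promoters and in part CTCF sites of the parental line. Their shares were near those over all CTCF-depleted sites. Of the 10077 with an annotation, 44.5% were at promoters, 4.68% in exons, 18.5% in introns and 32.4% between genes. Away from promoters, 3513 of 5597 (62.8%) overlapped a parental CTCF site and 1859 (33.2%) a CTCF site that was also in every CTCF library after CTCF depletion. At promoters these were 48.7% and 24.4% of 4480. Over all CTCF-depleted sites with an annotation, 49.0% were at promoters. The CTCF shares were 64.1% and 37.8% over all those away from promoters, and 49.2% and 28.5% over all those at promoters. A core CTCF motif was in the central 200 bp of 15.4% of 5388 single-copy sites away from promoters, beside 0.204% of windows 5 kb away, and in 2.11% at promoters.

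CTCF called after CTCF depletion was also counted at shared sites. Of the 312 shared CTCF-depleted sites away from promoters, 98.1% overlapped a parental CTCF site and 97.8% one left after CTCF depletion, and of the 164 at promoters 72.6% and 69.5%. Among single-copy shared sites these were 92.1% and 93.4% of 76 away from promoters and 63.3% and 59.2% of 120 at promoters. Over all sites, the share at parental CTCF sites was 32.7 points higher for shared than for "only" sites, 18.4 points with single-copy sites alone and 2.36 points without Rad21-depleted replicate 2. Per library, 58.2% and 81.1% of Rad21-depleted peaks and 38.2%, 45.6% and 50.5% of CTCF-depleted peaks were at parental CTCF sites, a difference of 24.9 points (exact permutation test, p = 0.10, adjusted p = 0.160). Without Rad21-depleted replicate 2 it was 13.5 points. At CTCF sites left after CTCF depletion the shares were 55.2% and 81.3% against 16.7%, 20.9% and 30.4%. When each list was cut to its 1384 highest peaks these differences turned to -21.6 and -15.5 points.

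The 10 sites of this class that ranked first had peaks in all 3 CTCF-depleted libraries, in untreated and in parental cells. Those at promoters were Arhgap22, Ccin, Trappc3, a trafficking complex subunit, Dgcr14 and Gm13031. Arhgap22 (chr14:34026414-34027791) had fold enrichment 22.4, 23.8 and 10.8, beside 19.6 and 14 in untreated Rad21-degron cells and 34.9, 32 and 14 in the parental line. The first sites away from promoters were nearest AC118255.1, Scgb1a1, Gm17516, Ivd and Cym. The site 5013 bp from Scgb1a1 (chr19:9156518-9157435, intergenic) had 22.7, 19 and 10.6, beside 12.5 and 8.89 without IAA and 32.6, 27.7 and 15.5 in the parental line.

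Sites were also compared with those of untreated Rad21-degron cells, as shares without a test. Of the sites found only in CTCF-depleted cells, 71.3% of those away from promoters and 36.4% of those at promoters overlapped a site of both untreated Rad21-degron libraries. Over all CTCF-depleted sites these shares were 70.9% and 37.9%. Of single-copy shared sites, 84.2% away and 52.5% at promoters overlapped such a site. Of multi-copy shared CTCF-depleted sites, 66.1% away and 84.1% at promoters did. Per library, the share of peaks at such sites was 35.9% and 42.9% after Rad21 depletion and 31.1%, 40.5% and 46.8% after CTCF depletion, with overlapping groups (exact permutation test, p = 1.00). That difference of -0.0366 points lay between -4.20 and 3.62 when 1 library was left out. It was -51.0 points when each list was cut to its 1384 highest peaks (exact permutation test, p = 0.10) and 23.3 points with equal numbers of human peaks.

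**Figure D5:**
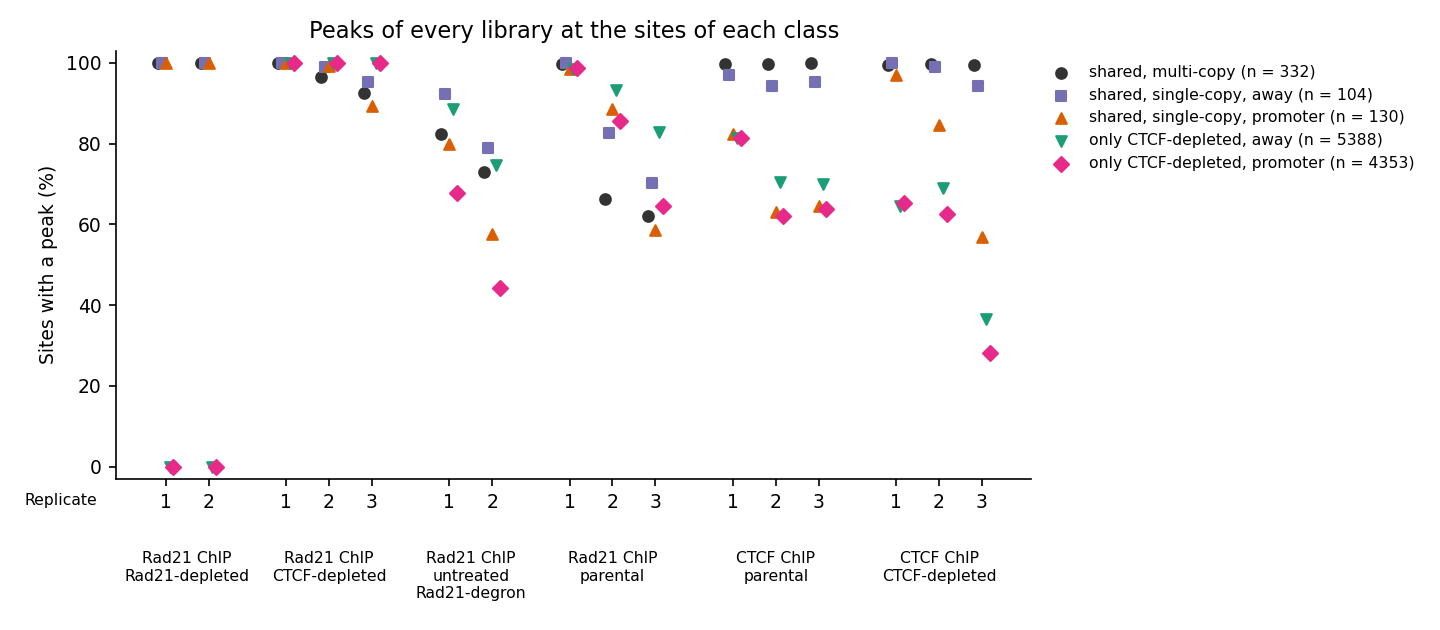
Percent of the sites of each class (vertical axis) with a peak in each of the 16 libraries, by antibody, cell group and replicate; marker shape and colour give the class. Multi-copy shared sites have a CTCF peak in 99.4% to 100% of cases in all 6 CTCF libraries, while single-copy sites found only in CTCF-depleted cells have one in 28.1% to 69.1% in CTCF-depleted cells. The values of 100% and 0% in the IAA-treated Rad21 libraries follow from the class definitions.

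Most of the 16 sites found only in Rad21-depleted cells were repeats. Of them 13 were multi-copy, none was at a promoter and all overlapped a peak of at least 1 CTCF library of CTCF-depleted cells. Over all Rad21-depleted sites 62.9% were multi-copy and 99.3% overlapped such a peak. The 3 single-copy ones lay in an intron of Tcte2 (chr17:13743580-13744505), near Gm13036 and in Gm13230. At Tcte2 fold enrichment was 4.69 and 5.29 in Rad21-depleted libraries, 4.33 and no peak without IAA, and 4.11 in parental replicate 1 alone. The other 2 had fold enrichment 4.43 to 4.66 in Rad21-depleted libraries.

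On chromosome 12 peak ends pass the end of the reference, so the lists appear to use a hybrid of mm9 with a further sequence there. Sites from position 110000000 on, which take in the immunoglobulin heavy chain locus, were therefore counted without annotation or sequence. All 16 Rad21-depleted sites in the window were shared. Of these 16, 6 lay together at chr12:117147313-117276833. Of the CTCF-depleted sites there, 13 were shared, 30 partial and 144 had no Rad21-depleted peak. Over the whole genome, 70.8% of Rad21-depleted and 4.01% of CTCF-depleted sites were shared.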

How the data were processed

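ChIP-seq peak lists of 16 samples, 5 of them compared here, were used as deposited. Per the submitters' processing notes, Bowtie2 2.2.8 and SAMtools 1.8 and the builds mm9 and hg19 were used. The peak caller, its threshold and the use of input are not given in the sources used here, and neither is read depth. The lists give the authors' fold enrichment (a ratio) per peak, a score, and -log10 p-values and q-values, per the file format. No counting interval can be given, and the low number of libraries limits precision.

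Mouse peaks were kept, merged where they overlapped by 1 bp or more, and placed on NCBIM37 with GENCODE vM1 in the order promoter, exon, intron, intergenic. The width at a site is that of its widest peak. Motifs were searched on both strands of the central 200 bp, on letters of the reference. Sites were joined into loci within 100 kb. Values per library were compared by two-sided exact permutation tests over all 10 relabellings, with Benjamini-Hochberg adjustment over 8 measures, or 5 sets of widths. Counts of sites are descriptions.

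The named sites were single-copy sites on autosomes and X. They were the first 5 at promoters and the first 5 elsewhere by mean percentile rank of fold enrichment for shared sites and for sites only in CTCF-depleted cells, and the first 5 only in Rad21-depleted cells, of which 3 existed. Added to these were the first 2 shared multi-copy sites and list genes with a shared promoter. The members and lists were chosen with earlier results of these data known. Calculations used Python 3.11.15, numpy 2.4.6, pandas 2.3.3 and scipy 1.17.1 and were tested on simulated peaks.

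The alternatives were a q-value of 0.001 or less, fold enrichment of 4 or more, joining peaks within 1000 bp, requiring at least 50 percent of a site to be covered, equal list lengths or equal numbers of human peaks, spike-in libraries alone, promoters to 500 or 2500 bp, single-copy sites or peaks alone, other reference sets of CTCF sites, and leaving out each library. The CTCF sites and the untreated sites used for comparison were held fixed under the filters. No sample was dropped or imputed in the main comparison.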

Additional observations from a re-analysis of the deposited data

How the results depend on the processing

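Of 233 recomputed values, 158 were counted as the same, 53 moved and 22 changed sign. Of the 118 values tested per library, 101 were the same, which means only that they kept direction. Of the 115 others, 57 were the same. Numbers of sites were the same when they stayed within a fixed fold change. The remaining values were the same when they moved by less than the spread of libraries. Of the values tested per library, peak number, covered length and the multi-copy share had the same direction under all alternatives run. No test could reach p under 0.05 with 2 against 3 libraries, and depth is unknown. The cause was not tested for any change. The peak number with equally long lists was not run, since it is then equal by construction.

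Sites found only in CTCF-depleted cells (10222) numbered 2811 at a q-value of 0.001 or less, 3007 when at least 50 percent covered, 789 with lists cut to 1384 peaks and 10356 to 18877 with a library left out. Sites found only in Rad21-depleted cells (16) numbered 35 at fold enrichment of 4 or more, 10 with peaks joined, 433 with cut lists, 82 with spike-in libraries alone, 4 with equal human peaks (319 per list), 3 with single-copy sites and 17 to 234 with a library left out. Shared sites (588) numbered 182 by q-value, 206 by coverage, 59 with cut lists, 102 with equal human peaks, 240 with single-copy sites and 544 to 2418 with a library left out. The shared percentage of Rad21-depleted sites (70.8) was 49.6 by q-value, 68.2 by fold, 73.7 joined, 38.4 by coverage, 9.85 with cut lists, 65.5 with spike-in libraries, 76.7 with equal human peaks, 79.5 with single-copy sites and 65.2 to 86.7 with a library left out. That of CTCF-depleted sites (4.01) was 5.46, 1.41 and 1.74 with cut lists, equal human peaks and single-copy sites, and 2.94 to 17.5 with a library left out.

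The shared minus "only" difference at parental CTCF sites (32.7 points) was 16.8 by q-value, 27.3 joined, -1.75 with cut lists, 12 with CTCF sites of at least 1 parental library, 18.4 with single-copy sites and 2.36 to 41.9 with a library left out. That at promoters (-10.0 points) was -15.5 by q-value, -1.89 joined, -23.0 by coverage, 14.6 with cut lists, -24.5 with equal human peaks, 16.5 with single-copy sites and -12.2 to 23.9 with a library left out. The log2 width difference of shared against "only" sites (0.23) was 0.82 joined, -0.08 by coverage, 0.68 with cut lists and 0.55 with equal human peaks.

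Per library, the log2 difference in peak number (-3.45) was -1.65 with mouse and human peaks together and -5.87 with equal human peaks. The log2 width difference (-0.92) was 0.18 with equal human peaks and -1.78 with cut lists. With cut lists the difference at parental CTCF sites was -21.6 points and at CTCF sites left after depletion -15.5. The promoter difference (0.429 points) was -5.00 by q-value, -1.16 by fold, -2.66 with spike-in libraries, -24.7 with equal human peaks, -0.278 with promoters to 2500 bp, 8.51 joined, 19 with cut lists, and -11.5 to 12.4 with a library left out. The difference at untreated sites (-0.0366 points) was 3.55 by coverage, 23.3 with equal human peaks, 1.43 with single-copy peaks alone, -51.0 with cut lists, 3.62 with the replicate block, and -4.20 to 3.62 with a library left out. The replicate block gave a smallest p of 0.500. Deviations of same-numbered libraries correlated at 0.31 and 0.11 over 536 sites, but the labels give only a number, so the numbers were not taken as pairs. The block changed no other direction.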
